A study of Mus musculus with 3 samples.

Results

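The cells described here are CD8 T cells from 2 mouse tumours that carried RNA of granzyme C, D, E or F. They were chosen on raw counts of unique molecular identifiers (UMIs, each standing for 1 captured RNA molecule). A member had at least 2 UMIs of Cd8a and Cd8b1 together, none of Cd4, none of Foxp3, and at least 3 UMIs of Gzmc, Gzmd, Gzme and Gzmf together. Of 4336 CD8 cells that met the first 3 limits, 291 were members, 153 from B16-Ova and 138 from MC38-Ova tumours, and the other 4045 CD8 cells served as the comparison. The members made up 1.94% of 14992 cells with a clear tumour tag, out of 19912 barcodes. B16-Ova is a mouse melanoma line and MC38-Ova a mouse colon carcinoma line, both carrying ovalbumin. Both were grown under the skin of C57BL/6 mice until day 14, when infiltrating T cells were sorted by TCRβ, CD3 and CD90.2 staining and absence of CD11b. B16-Ova cells carried hashtag 1 and MC38-Ova cells hashtag 2, and both were loaded in 1 capture of the 10x Genomics 5′ assay with antibody tags for PD-1, Tim-3 and biotinylated L-Pha, a lectin that binds branched N-glycans. How many mice each hashtag stands for is not stated, so each tumour is 1 pool of cells without a replicate.

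Cytotoxic T cells kill by releasing granules that hold perforin, which opens a path into the target cell, and granzymes, serine proteases that cut proteins inside it. In the mouse, a cluster of granzyme genes that begins with Gzmb continues with Gzmc, Gzmf, Gzmn, Gzmg, Gzmd and Gzme. Granzyme B is found in most activated CD8 T cells, whereas granzymes C to G are best known from strongly and repeatedly activated killer cells, and less is known of their targets.

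These 7 genes lie on the minus strand within 145 kb of chromosome 14 on GRCm38, from 56117626 to 56262260. To show how alike the members' defining genes are, the 250 bases before the RefSeq start of Gzmb and of the 4 granzymes of the rule are printed here from the RefSeq table for GRCm38.p6, 5′ to 3′ on the gene's strand. All 5 symbols matched the table. Capitals mark ACCACA on either strand, written TGTGGT on the other, the core letters that Runx transcription factors are known to bind. The regions are chr14:56262335-56262584 for Gzmb, chr14:56234658-56234907 for Gzmc, chr14:56211408-56211657 for Gzmf, chr14:56132594-56132843 for Gzmd and chr14:56120626-56120875 for Gzme, all minus strand.
Gzmb: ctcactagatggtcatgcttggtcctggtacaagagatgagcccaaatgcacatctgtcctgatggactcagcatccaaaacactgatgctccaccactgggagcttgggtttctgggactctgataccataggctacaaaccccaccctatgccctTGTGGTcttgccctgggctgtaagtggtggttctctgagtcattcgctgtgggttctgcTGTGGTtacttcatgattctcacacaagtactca
Gzmc: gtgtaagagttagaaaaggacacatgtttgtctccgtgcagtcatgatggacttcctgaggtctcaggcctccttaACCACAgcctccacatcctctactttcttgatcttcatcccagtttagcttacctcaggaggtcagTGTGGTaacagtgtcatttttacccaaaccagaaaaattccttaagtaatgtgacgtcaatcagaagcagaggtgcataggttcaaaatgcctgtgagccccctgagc
Gzmf: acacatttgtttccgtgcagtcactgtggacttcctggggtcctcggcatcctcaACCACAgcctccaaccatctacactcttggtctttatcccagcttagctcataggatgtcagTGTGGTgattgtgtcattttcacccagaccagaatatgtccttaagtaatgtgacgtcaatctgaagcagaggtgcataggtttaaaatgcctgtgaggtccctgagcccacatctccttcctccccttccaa
Gzmd: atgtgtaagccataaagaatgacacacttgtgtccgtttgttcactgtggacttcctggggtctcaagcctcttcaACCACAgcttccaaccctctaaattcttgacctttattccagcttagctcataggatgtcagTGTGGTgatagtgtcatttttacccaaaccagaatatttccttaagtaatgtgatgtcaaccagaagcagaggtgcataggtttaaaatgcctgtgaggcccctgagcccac
Gzme: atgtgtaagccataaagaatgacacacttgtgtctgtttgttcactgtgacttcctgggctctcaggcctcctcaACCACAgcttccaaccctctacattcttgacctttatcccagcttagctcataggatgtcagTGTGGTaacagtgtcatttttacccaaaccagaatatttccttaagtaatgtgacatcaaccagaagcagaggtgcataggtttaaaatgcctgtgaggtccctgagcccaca
Each of the 5 regions held 2 matches. Among 32851 RefSeq promoter windows of the same length, 14.0% held at least 1 match and 1.27% held 2 or more. The matches began 93 and 34 bases before the start in Gzmb, 174 and 108 in Gzmc, 195 and 133 in Gzmf, 174 and 112 in Gzmd, and 175 and 113 in Gzme. The Gzmd and Gzme regions were 94.8% identical and the Gzmc and Gzme regions 81.8%, whereas Gzmb was 47.3 to 52.2% identical to the other 4. The transcripts of Gzmd and Gzme were 90.4% identical, but at most 8.17% of the 60-base stretches of either occurred unbroken in the other. Reads shared between these copies could still be split or dropped in counting, so single values of Gzmd and Gzme are uncertain. The letters are a description of these windows, and binding was not measured.

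The matrix held counts for 31053 genes. Members held more RNA than the cells they are set against, with a median of 16107 RNA UMIs for B16-Ova and 12143.5 for MC38-Ova, whereas other CD8 cells had 6986 and 6816. A fixed UMI limit is passed more easily by a cell with more RNA. Every cell was therefore also thinned to 3000 RNA UMIs, which leaves out shallower cells (1 and 5 members, 124 and 230 other CD8 cells). With the whole rule read on the thinned counts, 118 of 1885 B16-Ova CD8 cells were members, 6.26% (exact 95% interval 5.21 to 7.45), and 71 of 2491 in MC38-Ova, 2.85% (2.23 to 3.58). Cells that lost all their Cd4 and Foxp3 UMIs in thinning could enter, so these are not the same CD8 cells. In B16-Ova they outnumbered the 1792 CD8 cells at full depth. Barcodes with both hashtags numbered 2388 and were left out. The cells scored highest for doublets by Scrublet made up 10.5% and 15.2% of members and 9.40% and 13.8% of other CD8 cells. All intervals cover counting error only, since cells of 1 pool are not replicates. The members were chosen by counts of the same cells that are compared, so no test is made between them and the other CD8 cells.

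The defining markers of CD8 T cells were present in the members. Cd3e, a chain of the T cell receptor complex, was detected in 100% of B16-Ova and 99.3% of MC38-Ova members, at 1384 and 1326.5 counts per 1000000 summed RNA UMIs (CPM). Cd8b1, which the rule reads together with Cd8a, was detected in 99.3% and 97.1%. Of the 5 markers given for the cells, Cd8a, Gzmc and Gzmf were read by the rule, and Prf1 and Spp1 were not. Prf1 fitted the name in both tumours, being detected in 96.7% and 82.6% of members. Spp1 was detected in 53.6% of B16-Ova members but in only 15 of 138 MC38-Ova members, so it marked a minority of the members in that tumour.

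Members made up 8.54% (7.28 to 9.93) of CD8 cells in B16-Ova and 5.42% (4.58 to 6.38) in MC38-Ova. The intervals do not overlap, but with 1 pool per tumour the difference could not be set against a spread between mice. Granzyme RNA was concentrated in few cells. In B16-Ova, 84.3% of CD8 cells had no UMI of the 4 genes, 108 had 1, 20 had 2, and 24 had over 100, up to 832. In MC38-Ova, 85.0% had none, 209 had 1, 35 had 2, and 11 had over 100, up to 269. The members held 98.5% of these UMIs among B16-Ova CD8 cells and 93.8% among MC38-Ova CD8 cells. Within the members, the 16 B16-Ova cells with the most granzyme UMIs held 57.0% of them, and the 14 such MC38-Ova cells held 45.9%.

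**Figure D1:**
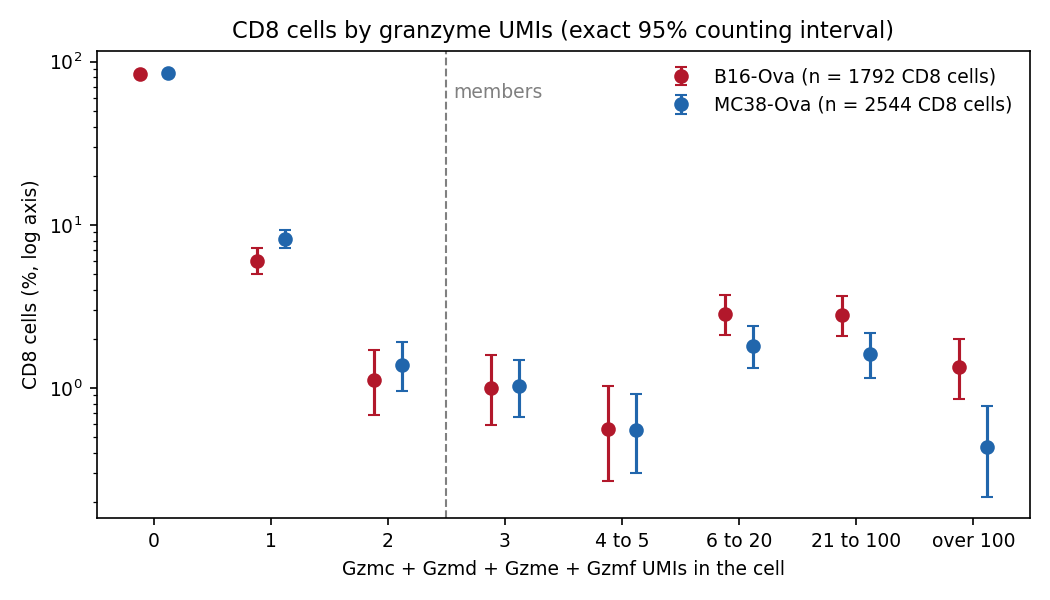
Share of CD8 cells (percent, log axis) by the number of Gzmc, Gzmd, Gzme and Gzmf UMIs in the cell, in B16-Ova (red) and MC38-Ova (blue). Points are shares and bars exact 95% counting intervals. The dashed line is the limit of 3 UMIs. The shares run from 84.3% and 85.0% at 0 UMIs, and cells with over 100 UMIs are 1.34% and 0.432%.

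The cells nearest the limit were compared on both sides of it. In B16-Ova, 18 cells had 3 UMIs and 20 had 2, with median RNA of 14301.5 and 17501 UMIs. Their Prf1 level was 516 and 522 CPM and their Spp1 level 60.2 and 18.1 CPM. Gzmb stood at 1432 and 1210 CPM in these B16-Ova cells and Ifng at 269 and 447 CPM. In MC38-Ova, 26 cells had 3 UMIs and 35 had 2, and their Prf1 level was 561 and 363 CPM. Their Gzmb level was 9033 and 3277 CPM and their Ifng level 3312 and 1433 CPM. Spp1 stood at 0 and 4.78 CPM in these MC38-Ova cells. Among all MC38-Ova members, a single cell held 912 of the 2410 Ifng UMIs.

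The 4 granzymes of the rule were used unequally. Each UMI counts 1 molecule from its 5′ end, so these values are not divided by gene length. B16-Ova members held 4382 UMIs of Gzmf (1568 CPM), 3035 of Gzmc (1086 CPM), 1152 of Gzme (412 CPM) and 965 of Gzmd (345 CPM). MC38-Ova members held 1347 of Gzmf (721 CPM), 2042 of Gzmc (1093 CPM), 477 of Gzme (255 CPM) and 380 of Gzmd (203 CPM). Gzmc was therefore near the same level in members of both tumours, while the other 3 were higher in B16-Ova. Gzmf was the highest of the 4 in 45.8% of B16-Ova members and in 23.9% of MC38-Ova members, and Gzmc in 39.9% and 55.8%. All 4 were detected together in 24.2% (17.6 to 31.8) of B16-Ova and 10.9% (6.21 to 17.3) of MC38-Ova members. Only 1 of the 4 was detected in 28.1% and 47.8%, most often Gzmc. Gzmg, which the rule did not read, had 25 UMIs in B16-Ova members, 17 of them in 1 cell, and 4 in MC38-Ova members, and none in other CD8 cells. Gzmn had none in members or other CD8 cells, and 0 of 153 and 0 of 138 members allow shares of up to 2.38% and 2.64% by the exact 95% interval.

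Outside the members, Gzmc UMIs were rare. They were detected in 4.45% of other B16-Ova CD8 cells and 6.82% of other MC38-Ova CD8 cells, never more than 2 in a cell because of the rule. In cells with Cd4 UMIs and no Cd8a or Cd8b1 UMI, which are not expected to be CD8 T cells, Gzmc was detected in 3.74% (median 4843 RNA UMIs) and 6.95% (median 5475). Single CD4 cells held up to 18 and 100 Gzmc UMIs, so this reference is not free of expressing cells. Among other CD8 cells, those with 1 to 2 UMIs of the 4 granzymes had more Prf1 than those with none, at 557 against 250 CPM in B16-Ova and 265 against 165 CPM in MC38-Ova. Whether such single UMIs are background or low expression was not tested. Gzmc was detected in 87.6% and 82.6% of members, which the rule favours.

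Among genes outside the rule, perforin and granzyme B were higher in members of both tumours. A gene was called when its CPM over the summed cells differed at least 2-fold in the same direction in both tumours. The 9352 genes compared had at least 50 UMIs in each tumour over members and other CD8 cells together. Of these, 39 genes (0.417%) were called higher in members and 178 (1.9%) lower, and the median log2 ratios over all genes were -0.0024 for B16-Ova and -0.047 for MC38-Ova. Within B16-Ova alone, 1.58% of genes were past 2-fold higher and 5.56% lower, and within MC38-Ova alone 1.2% and 4.84%. Prf1, the pore-forming protein of the granule, stood at 1226 CPM in B16-Ova members against 281 in other CD8 cells, a ratio of 4.36 (4.17 to 4.57). In MC38-Ova it stood at 565 against 178 CPM, a ratio of 3.17 (2.96 to 3.40). Gzmb stood at 2953 against 1034 CPM in B16-Ova, a ratio of 2.86 (2.78 to 2.93), and at 5246 against 2145 CPM in MC38-Ova, a ratio of 2.45 (2.39 to 2.50). At least 3 Gzmb UMIs were present in 96.7% and 89.1% of members. Thinned to 3000 RNA UMIs, Prf1 was detected in 85.5% (78.9 to 90.7) of B16-Ova members against 29.3% of other CD8 cells, and in 57.9% (49.0 to 66.4) against 23.2% in MC38-Ova. Prf1 was thus more often detected in members at equal depth as well.

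The rest of the lytic granule list did not follow. Of its 16 tested genes, 2 were called higher, Prf1 and Gzmb, and 1 lower, where 0.417% of all genes were called higher and 1.9% lower. The list medians were 0.14 for B16-Ova and 0.17 for MC38-Ova (log2). The gene called lower was Gzmk, a granzyme known from memory-like and early effector CD8 cells, at 99.8 against 225 CPM in B16-Ova and 77.6 against 156 CPM in MC38-Ova. Nkg7, a granule membrane protein, had ratios of 1.11 and 1.16, and Srgn, the proteoglycan that packs granule proteins, 0.94 and 1.03. Fasl, the death ligand of the other killing route, had ratios of 1.09 and 1.14, and Lamp1, a granule membrane marker, 0.70 and 0.72. Cst7, an inhibitor of the proteases that activate granzymes, had ratios of 1.73 and 1.15. Gzma, a granzyme with trypsin-like activity, went in opposite directions in the 2 tumours, at 58.3 against 176 CPM in B16-Ova and 598 against 190 CPM in MC38-Ova. In MC38-Ova members, 1118 Gzma UMIs came from 39 cells and 5 of those cells held 74.0% of them.

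Serpins are protease inhibitors, and several protect killer cells from their own granzymes. Of 8 tested serpins, 2 were called higher in members and none lower, where 0.417% of all genes were called higher and 1.9% lower, with list medians of 1.17 for B16-Ova and 0.83 for MC38-Ova (log2). Serpinb9b, a relative of the granzyme B inhibitor Serpinb9, ranked first among called genes with at least 20 CPM in members of both tumours, by the smaller of the 2 log2 ratios. It stood at 182 against 17.1 CPM in B16-Ova, a ratio of 10.7 (9.14 to 12.5), and at 144 against 12.6 CPM in MC38-Ova, a ratio of 11.4 (9.54 to 13.6). Its UMIs came from 34 of 153 and 35 of 138 members, so most members had none detected. Serpine2, an inhibitor of extracellular serine proteases also called protease nexin-1, stood at 301 against 63.5 CPM in B16-Ova and 104 against 42.0 CPM in MC38-Ova. Serpinb9 itself had ratios of 2.38 and 1.98, just short of the call in MC38-Ova. Serpinb6b had ratios of 2.27 and 1.90 and Serpinb6a 1.98 and 1.66.

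The other genes with the largest ratios were of mixed function. Spp1, which encodes the secreted protein osteopontin, stood at 565 against 89.9 CPM in B16-Ova, a ratio of 6.28 (5.83 to 6.77), and at 40.7 against 8.39 CPM in MC38-Ova, a ratio of 4.85 (3.64 to 6.41). In B16-Ova the 5 members with the most Spp1 held 41.0% of its UMIs, and in MC38-Ova 5 members held 81.6% of only 76 UMIs. Gldc, the glycine decarboxylase of the glycine cleavage system, had ratios of 4.69 (3.90 to 5.63) and 5.65 (3.76 to 8.39). Myo10, an unconventional myosin of filopodia, had ratios of 6.35 (5.27 to 7.66) and 3.59 (2.65 to 4.83). Nrgn, a calmodulin-binding protein, stood at 282 against 88.7 CPM and 110 against 20.9 CPM. Il1r2, a decoy receptor for interleukin 1, had ratios of 3.11 (2.62 to 3.68) and 5.60 (4.77 to 6.57). Irf8, a transcription factor of the interferon regulatory family, had ratios of 3.15 and 2.43. Csf1, the growth factor of macrophages, had ratios of 2.35 and 3.11. Lat2, an adaptor of receptor signalling, had ratios of 3.07 and 2.83. Ifitm2, Fam213a and Tmem163 closed the 15 largest, with ratios between 2.17 and 2.32 and intervals that reached below 2 in at least 1 tumour.

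**Figure D2:**
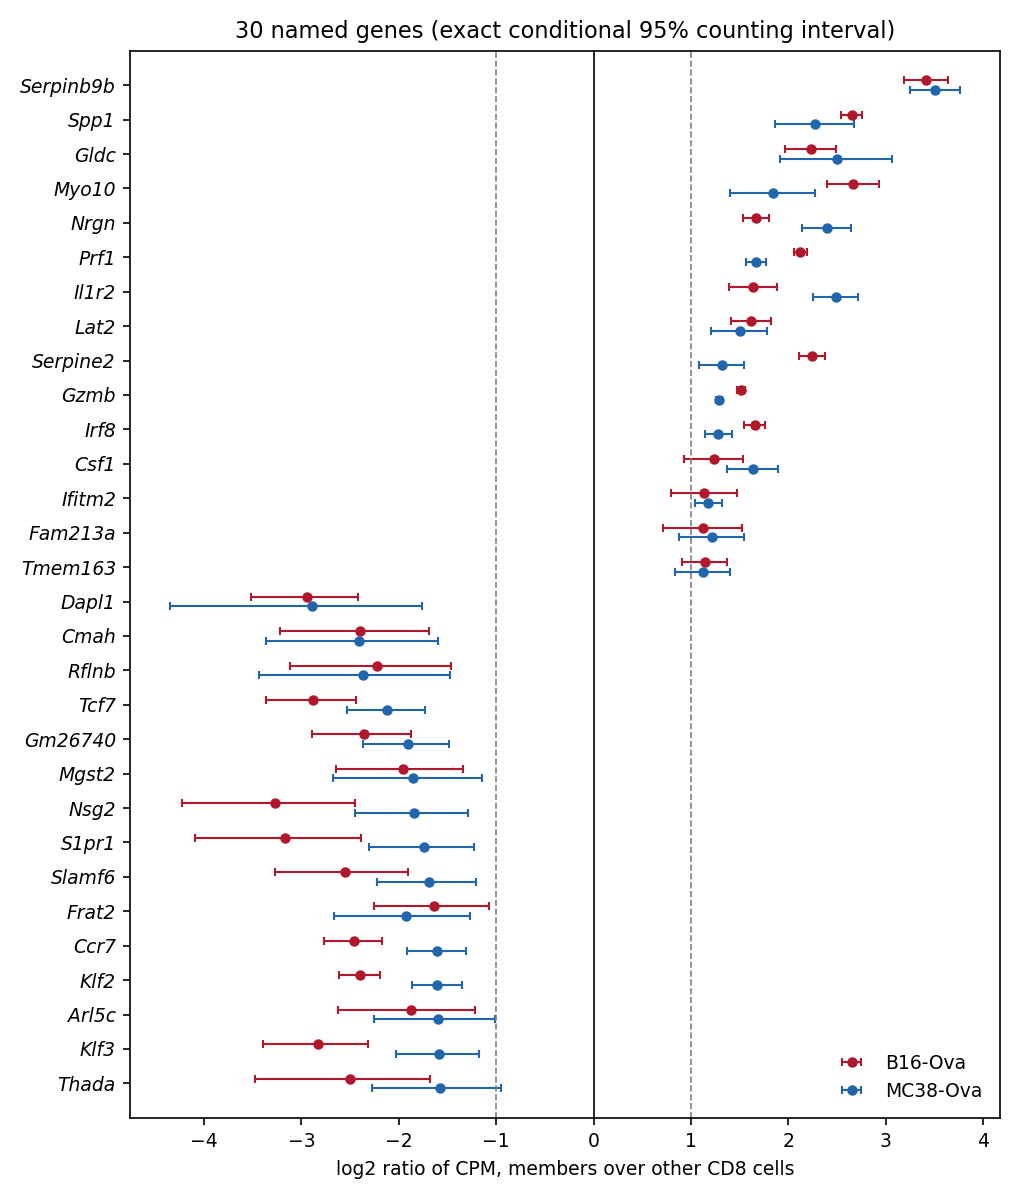
Log2 ratio of CPM in members over other CD8 cells for the 15 called genes with the largest ratios and the 15 with the lowest, in B16-Ova (red) and MC38-Ova (blue), with exact conditional 95% counting intervals. Dashed lines mark a 2-fold difference. Serpinb9b lies highest, at 3.41 and 3.51, and Dapl1 and Tcf7 are among the lowest, at -2.94 and -2.90 and at -2.88 and -2.12.

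The depth of the members moved with these values. When the other CD8 cells were weighted to the members' distribution over deciles of RNA UMIs, 18 genes were called higher and 110 lower, and 16 and 83 of the genes first called were among them. Under that weighting Serpinb9b had log2 ratios of 2.54 in B16-Ova and 3.11 in MC38-Ova, Spp1 1.75 and 2.05, Prf1 1.73 and 1.32, and Il1r2 1.15 and 2.09. Gzmb then had 1.48 and 0.91, Irf8 1.17 and 0.90, and Nrgn 0.87 and 1.92, each short of 2-fold in 1 tumour.

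Genes of naive and memory T cells were low in members. Of 14 tested genes of that list, 11 were called lower and none higher, against 1.9% of all genes, with list medians of -2.45 for B16-Ova and -1.56 for MC38-Ova (log2). Tcf7, the transcription factor TCF-1 of naive and stem-like T cells, stood at 15.03 against 111 CPM in B16-Ova, a ratio of 0.136 (0.0974 to 0.184), and at 29.4 against 128 CPM in MC38-Ova, a ratio of 0.230 (0.173 to 0.301). Its partner Lef1 stood at 18.2 against 96.9 CPM and 43.9 against 92.9 CPM. S1pr1, the receptor by which T cells leave tissue, had ratios of 0.111 (0.0586 to 0.191) and 0.298 (0.202 to 0.426), and Klf2, which drives its expression, 0.190 and 0.329. Ccr7, a lymph node homing receptor, had ratios of 0.182 and 0.329. Slamf6, a surface marker of stem-like exhausted cells, had ratios of 0.171 and 0.309, and Id3 0.119 and 0.364. Bcl2, which protects resting T cells from death, had ratios of 0.293 and 0.458. Il7r, the interleukin 7 receptor, had ratios of 0.235 and 0.717, Satb1 0.292 and 0.746, and Bach2 0.360 and 0.726, so these 3 were past 2-fold in B16-Ova alone. Other genes with very low ratios were Dapl1 (0.130 and 0.134), Rflnb, Mgst2, Nsg2, Frat2, Arl5c, Klf3, Thada and the transcript Gm26740.

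Homing genes gave 5 calls lower and none higher among 22 tested, where 1.9% of all genes were called lower and 0.417% higher. These were Cxcr3, the receptor for interferon-induced chemokines (20.0 against 99.8 CPM in B16-Ova, 54.6 against 145 CPM in MC38-Ova), Cxcr4, Ccr7, and the integrin chains Itgb7 and Itgae. Cxcr6, a receptor of tissue-resident and tumour-resident T cells, had ratios of 1.44 and 1.53, and Itgav, an integrin chain that binds osteopontin, 1.57 and 1.53.

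Cytokine and chemokine genes were mixed, with 2 of 20 called higher (Spp1 and Csf1) and 2 lower. Over all genes, 0.417% were called higher and 1.9% lower. Ccl5, an abundant chemokine of effector and memory CD8 cells, stood at 3512 against 7579 CPM in B16-Ova and 2169 against 4404 CPM in MC38-Ova. Il10, an inhibitory cytokine, stood at 2.86 against 8.04 CPM and 1.07 against 8.50 CPM. Members held 2794628 and 1868828 RNA UMIs in total, so levels this low rest on few UMIs. The log2 ratio of Il10 was above 0 in MC38-Ova with 1 granzyme UMI against none (0.74). In B16-Ova it was above 0 with the mean of per-cell CPM (0.099). Ifng, the effector cytokine interferon gamma, had ratios of 1.71 and 1.87, Ccl3 2.41 and 1.86, and Ccl4 1.11 and 1.27. In MC38-Ova, 5 members held 72.3% of the Ifng UMIs, 912 of them in 1 cell. Among 16 cytokine receptors 1 was called higher, Il1r2, and 1 lower, Il6ra, at 0.358 against 13.3 CPM and 1.61 against 9.54 CPM. The Il6ra values of members also rest on few UMIs.

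Most genes of the exhaustion and checkpoint list were not called, with list medians of 0.26 for B16-Ova and 0.11 for MC38-Ova (log2). Over all genes, 0.417% were called higher and 1.9% lower. Pdcd1, which encodes PD-1, had ratios of 1.67 and 1.79, Havcr2, which encodes Tim-3, 1.99 and 2.04, Lag3 1.49 and 2.16, and Entpd1 1.52 and 2.69. Tigit had ratios of 0.94 and 1.13, Ctla4 0.98 and 1.01, Cd160 0.63 and 1.02, and Cd101 0.71 and 0.63. Of 20 tested genes of this list, Cd244, a receptor of the SLAM family, was called higher (2.84 and 2.23) and Nt5e, the ectoenzyme CD73, lower (0.344 and 0.362). Tox, a transcription factor of exhausted T cells, had ratios of 1.37 in B16-Ova and 0.62 in MC38-Ova. Of 21 transcription factors, Irf8 was called higher and none lower; Tbx21, the factor T-bet, had ratios of 1.41 and 1.29 and Runx3 0.91 and 0.88. Of 18 genes induced by T cell receptor signal, none was called higher and Egr2 was called lower, at 1.79 against 7.97 CPM and 4.82 against 19.4 CPM.

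To set the members beside cells of a like state, they were compared with the 474 B16-Ova and 650 MC38-Ova other CD8 cells that had UMIs of both Pdcd1 and Havcr2. This comparison was chosen after the values were seen. Those cells had median RNA of 10769.5 and 9461.5 UMIs, still below the members. Of 7905 genes, 7 (0.0886%) were called higher in members and 15 (0.19%) lower. The 7 were Serpinb9b (4.80 in B16-Ova and 5.02 in MC38-Ova), Cd63 (4.35 and 3.67), Gng11 (3.01 and 4.83), Myo10 (4.08 and 2.46), Spp1 (2.68 and 2.46), Gldc (2.25 and 3.09) and Creb3l2 (2.15 and 2.22). Cd63 encodes a membrane protein of late endosomes and secretory granules. Prf1 then had ratios of 2.20 and 1.51 and Gzmb 1.79 and 1.30, so both were short of the call. The genes called lower included Gzmk (0.341 and 0.437), Ccl5 (0.361 and 0.481), Il10 (0.196 and 0.0637), Cxcr3 (0.376 and 0.488), Slamf6 (0.338 and 0.402) and Serpinb1a (0.339 and 0.447). For Il10 these ratios rest on few UMIs in members. Of the naive and memory genes 1 of 14 was called, with a list median of -0.86 and -0.48 (log2). Tcf7 had ratios of 0.491 and 0.508.

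Several lists gave no or few calls, where 0.417% of all genes were called higher and 1.9% lower. Among 20 S phase genes none was called, with median log2 ratios of 0.37 for B16-Ova and 0.48 for MC38-Ova. Among 20 genes of G2 and M phase none was called, with medians of 0.12 and -0.48. Mki67, a marker of cycling cells, was detected in 17.1% of B16-Ova and 9.02% of MC38-Ova members after thinning to 3000 RNA UMIs, against 12.1% and 10.3% of other CD8 cells (47.7%, 29.0%, 21.8% and 18.5% before thinning). Over both phase lists, at least 3 UMIs were found after thinning in 84.9% (78.2 to 90.2) of B16-Ova members. Other B16-Ova CD8 cells had 52.9% (50.3 to 55.4). In MC38-Ova the shares were 55.6% (46.8 to 64.2) and 49.5% (47.4 to 51.7). Among 17 glycolysis genes none was called, with medians of 0.43 and 0.36, and Ldha, lactate dehydrogenase A, had ratios of 1.44 and 1.38. Among 22 genes of the endoplasmic reticulum secretory path none was called, with medians of 0.45 and 0.57. Its members Sdf2l1 (1.82 and 1.90), Creld2 (1.86 and 1.75) and Hsp90b1 (1.78 and 1.54) had the larger ratios. Among 12 genes of amino acid and iron uptake Gldc alone was called, and Asns, asparagine synthetase, had ratios of 1.89 and 2.95. No metallothionein or redox gene of 10 was called in both tumours, although Mt1 had ratios of 2.48 and 1.82 and Mt2 3.30 and 1.54. Of 13 survival and death genes Bcl2 alone was called, lower. Of 14 natural killer type receptors and adaptors none was called, and Klrd1 had ratios of 1.72 and 1.49. Of 15 interferon response genes Oasl2 was called lower, with list medians of -1.14 and -0.54. Of 18 genes induced by tissue dissociation Zfp36 was called lower, with list medians of -0.50 and -0.42, and Fos had ratios of 0.390 and 0.558.

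Within the members, B16-Ova cells with more granzyme UMIs also had more RNA of several other genes. The bands are cut on genes of the rule, so they are a description of how members varied. In B16-Ova, Prf1 stood at 711 CPM in the 28 members with 3 to 5 granzyme UMIs, 886 in the 51 with 6 to 20, 1558 in the 50 with 21 to 100, and 1711 in the 24 with over 100. Spp1 stood at 76.0, 305, 613 and 1367 CPM over the same bands and Serpinb9b at 12.7, 125, 150 and 488 CPM. Ccl9, a chemokine, stood at 10.6, 15.5, 137 and 202 CPM. Median RNA of these bands was 15254.5, 16113, 15883 and 18646.5 UMIs, deepest in the band over 100. The band of 3 to 5 was not above other B16-Ova CD8 cells for Spp1 and Serpinb9b. Other cells with 0 granzyme UMIs had 86.2 CPM of Spp1 and 15.2 CPM of Serpinb9b. Those with 1 to 2 had 122 and 34.6 CPM. In MC38-Ova the bands held 40, 46, 41 and 11 members, and Prf1 stood at 552, 640, 521 and 522 CPM without a like course. Gzmb ran the other way there, at 7368, 5718, 3705 and 3356 CPM, and Ifng stood at 2426, 1699, 361 and 170 CPM. The course of Ifng did not hold when MC38-Ova members were split into 4 groups of like size by granzyme UMIs per 10000 RNA UMIs, where it stood at 2183, 664, 1889 and 214 CPM. Of the 2410 Ifng UMIs in MC38-Ova members, 5 cells held 72.3%, 1 of them 912. Gzmb stood at 7855, 4882, 4104 and 3402 CPM over these groups. Over the bands, Serpinb9b in MC38-Ova stood at 173, 53.0, 182 and 202 CPM, in no order. Spp1 there stood at 43.7, 1.83, 63.4 and 69.3 CPM. Other MC38-Ova CD8 cells with 0 granzyme UMIs had 8.80 CPM of Spp1, above the band of 6 to 20.

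**Figure D3:**
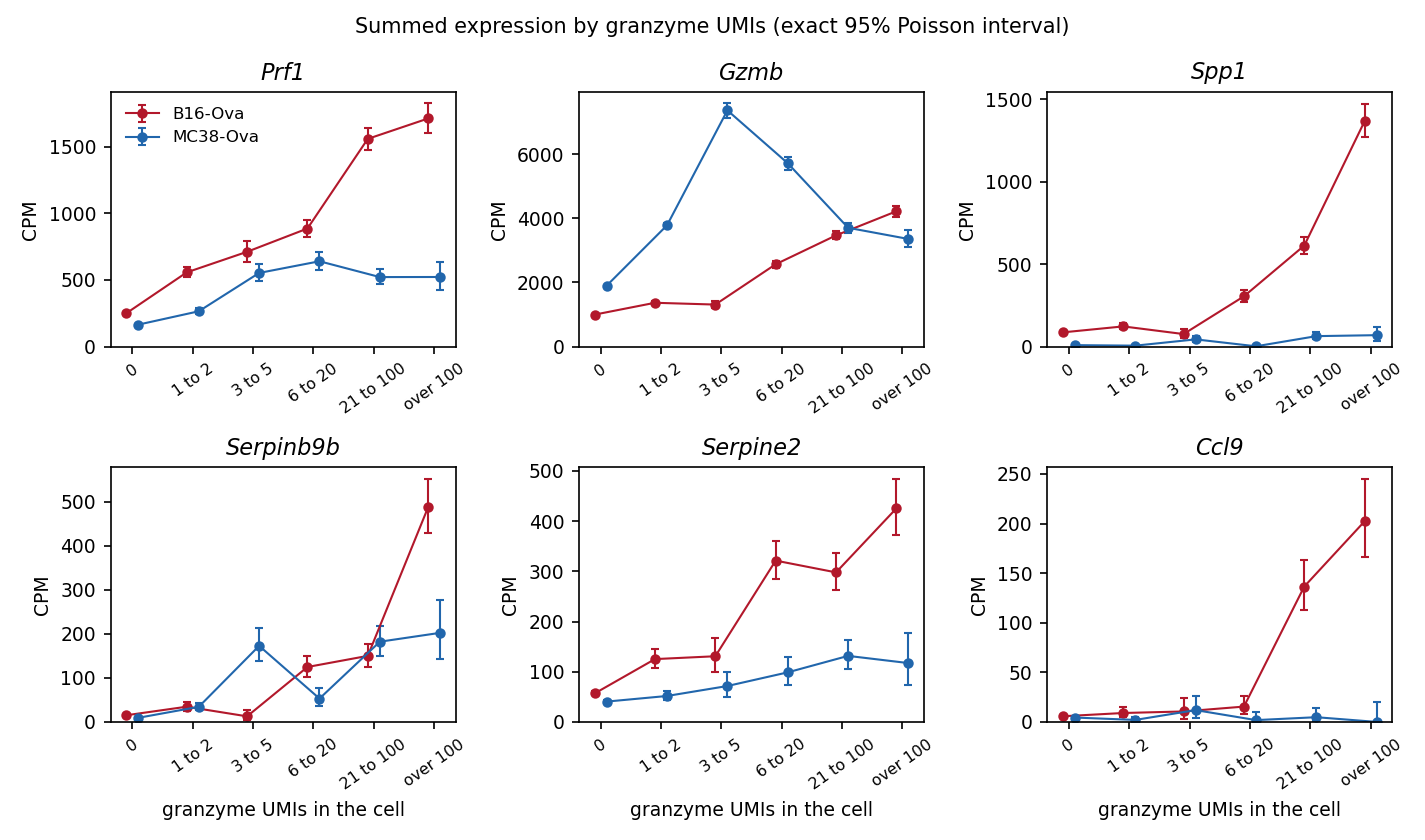
CPM of Prf1, Gzmb, Spp1, Serpinb9b, Serpine2 and Ccl9 over summed cells, by the granzyme UMIs of the cell, in B16-Ova (red) and MC38-Ova (blue), with exact 95% Poisson intervals. The bands 0 and 1 to 2 are other CD8 cells and the rest are members. In B16-Ova Prf1 runs from 711 CPM in the lowest band of members to 1711 in the highest, whereas in MC38-Ova it stays between 521 and 640.

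Members of the 2 tumours differed from each other in many genes. Among 6830 genes, 190 (2.78%) were at least 2-fold higher in MC38-Ova members and 229 (3.35%) in B16-Ova members. In the other CD8 cells the same rule gave 2.3% and 1.89% of 10414 genes. Each value compares 1 pool with 1 pool. The gene with the largest ratio toward MC38-Ova was Ifitm1, an interferon-induced membrane protein, at 963 CPM in MC38-Ova members against 4.65 in B16-Ova members. It was detected in 70 of 138 and 8 of 153 members. In other CD8 cells Ifitm1 stood at 286 and 21.8 CPM, so the gap between tumours was present there too, at 13.1-fold. Gzma, Tyrobp (115 against 11.1 CPM), Ifitm2 (273 against 37.6 CPM), Ifi27l2a (1554 against 293 CPM) and Ccl2 (68.5 against 8.59 CPM) were also higher in MC38-Ova members. Other CD8 cells had a like gap for Ifitm2 (121 against 17.1 CPM) but not for Gzma (190 against 176 CPM). Their gap had the same direction for Ifi27l2a (2267 against 788 CPM), Tyrobp (66.8 against 20.9 CPM) and Ccl2 (16.8 against 4.85 CPM). Ifi27l2a was lower in MC38-Ova members than in other MC38-Ova CD8 cells. Tyrobp was detected in 19 of 138 MC38-Ova members, and 5 cells held 73.5% of its 215 UMIs. Il2 stood at 109 against 1.07 CPM, but in MC38-Ova members 8 cells held all its UMIs and 5 of them 98.5%. In other CD8 cells Il2 stood at 83.4 against 6.10 CPM. Of 14 tested interferon response genes 10 were at least 2-fold higher in MC38-Ova members and none in B16-Ova members, with a median log2 ratio of 1.39. Of 17 tested genes of G2 and M phase 10 were higher in B16-Ova members and none in MC38-Ova members, with a median of -1.21. The naive and memory list had 8 of 11 genes higher in MC38-Ova members. Cd69, an early activation and residency marker, stood at 422 against 111 CPM, and Il7r at 140 against 40.1 CPM. These lists were not counted between tumours in other CD8 cells, so whether the list gaps belong to members alone was not tested. In other CD8 cells Mki67 was also lower in MC38-Ova, at 65.7 against 103 CPM. There Il7r stood at 195.5 against 170.8 CPM, and Ccr7 went the other way, at 153 against 195 CPM.

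Toward B16-Ova, members had more Spp1 (565 against 40.7 CPM), Ccl9 (88.4 against 5.35 CPM), Tox (178 against 30.5 CPM), Hspa1a (79.1 against 2.68 CPM) and Prf1 (1226 against 565 CPM). Other CD8 cells also had more Spp1 (89.9 against 8.39 CPM), Hspa1a (113 against 13.8 CPM) and Tox (130 against 49.1 CPM) in B16-Ova. For Ccl9 (6.03 against 4.09 CPM) and Prf1 (281 against 178 CPM) the gap there was under 2-fold. Fcer1g, a signalling chain shared by several receptors, stood at 417 against 187 CPM and was detected in 62.1% against 25.4% of members. In other CD8 cells the order was 99.7 CPM in B16-Ova and 167 CPM in MC38-Ova, so Fcer1g set B16-Ova members apart from their own neighbours at 4.18-fold but not MC38-Ova members, at 1.12-fold. Genes of pigment cells were also among the largest ratios toward B16-Ova. Pmel stood at 240 against 3.75 CPM, but 1 cell held 660 of its 670 UMIs in B16-Ova members. Single cells likewise held 395 of 403 Dct UMIs, 294 of 298 Tyrp1 UMIs and 240 of 246 Mlana UMIs. Over 8 melanoma markers, all detected, the summed level was 652 CPM in B16-Ova members against 205 in other B16-Ova CD8 cells, and 21.9 against 39.6 CPM in MC38-Ova with Sox10 at 0. Over 8 macrophage markers it was 115 against 49.7 CPM in B16-Ova and 26.2 against 73.0 CPM in MC38-Ova, where Csf1r and Adgre1 were at 0 in members. When cells with 2 or more UMIs of these markers were left out, a choice made after the values were seen, 227 members remained and 138 genes were higher in B16-Ova members. With fewer members, fewer genes could pass the UMI minimum, so this count is not comparable with the one over all members. The part of such RNA in the other values was not tested.

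Summed markers of other lymphocytes were lower in members for some classes and higher for others. In B16-Ova those of natural killer, natural killer T and gamma-delta T cells were higher in members than in other CD8 cells. Of 5 markers of conventional CD4 cells, Cd4, which the rule sets to 0, and Cxcr5 were at 0 in members of both tumours, and the sum was 5.73 and 22.5 CPM against 37.2 and 58.7 CPM in other CD8 cells. Of 7 regulatory T cell markers only Foxp3, again set by the rule, was at 0, and the sum was 889 and 911 CPM against 758 and 792 CPM. It includes activation genes such as Ctla4 and Tnfrsf4. Of 7 markers of natural killer and natural killer T cells, the sum was 471 CPM in B16-Ova members against 175 in other CD8 cells, with Zbtb16 at 0, and 431 against 364 CPM in MC38-Ova. Most of the B16-Ova sum was Fcer1g, at 417 CPM. B cell markers summed to 22.5 and 51.4 CPM against 83.2 and 97.0 CPM, and Ms4a1 was at 0 in members. Of 6 gamma-delta T cell markers the sum was 45.8 CPM in B16-Ova members against 15.2 in other CD8 cells, with Trdc, Trdv4 and Sox13 at 0, and 19.3 against 26.8 CPM in MC38-Ova. Of 8 dendritic cell markers it was 152 against 114 CPM in B16-Ova, with Flt3, Xcr1 and Ccl22 at 0, and 72.2 against 251 CPM in MC38-Ova. At least 2 UMIs of markers of other cell classes were found in 64.1% and 53.6% of members and in 52.3% and 51.9% of other CD8 cells. The part of such RNA in the results was not tested.

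Many B16-Ova members carried the same pair of T cell receptor V segments. Segments were read from the gene expression library, since the receptor library was not analysed here, and near-identical V genes may share reads. A segment counted as found from 1 UMI, so a cell could count for several segments. The shares were not matched for depth, and members held more RNA than other CD8 cells. The pair of Trbv12-1 and Trav12-1 was singled out after the values were seen. UMIs of both occurred together in 39 of 153 B16-Ova members, 25.5% (18.8 to 33.2). The pair occurred in 15 of 1639 other B16-Ova CD8 cells, 0.915% (0.513 to 1.50), in 2 of 138 MC38-Ova members, 1.45% (0.176 to 5.14), and in 17 of 2406 other MC38-Ova CD8 cells, 0.707% (0.412 to 1.13). Among 1257 B16-Ova CD4 cells none had it, which allows a share of up to 0.293% by the exact 95% interval. Read the other way, 39 of the 54 B16-Ova CD8 cells with the pair were members, 72.2% (58.4 to 83.5), against 114 of 1738 without it, 6.56% (5.44 to 7.83). In MC38-Ova 2 of 19 cells with the pair were members.

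**Figure D4:**
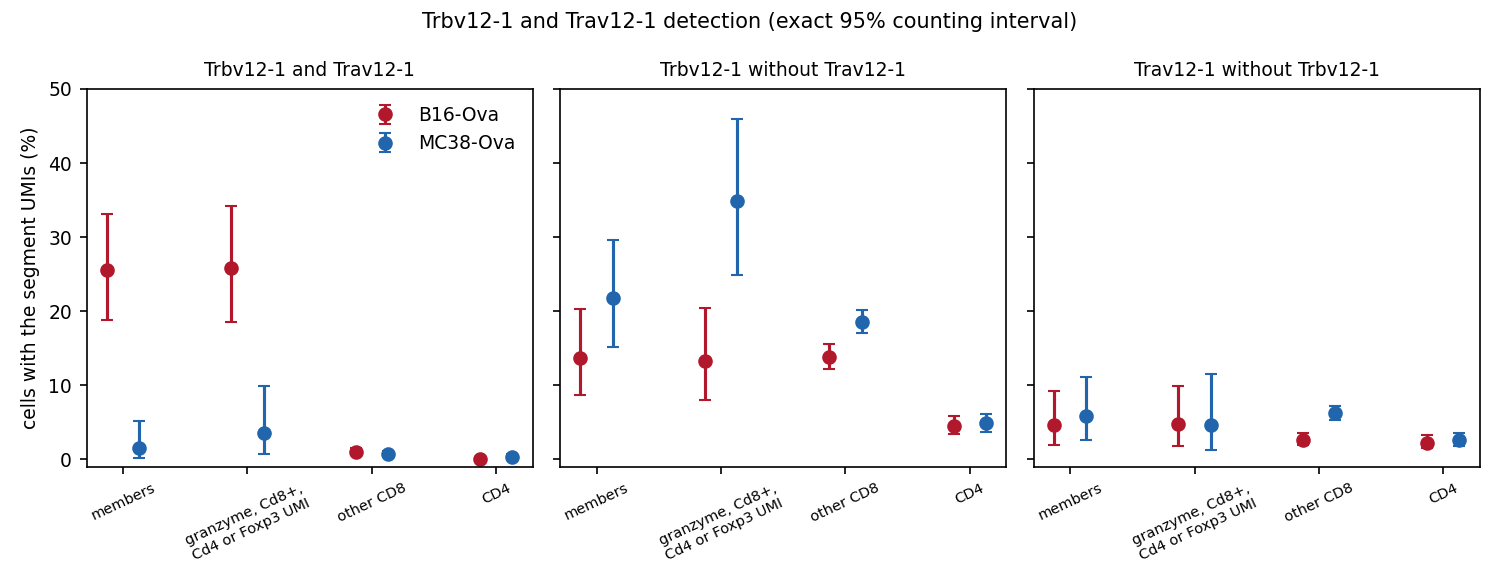
Share of cells (percent) with UMIs of both Trbv12-1 and Trav12-1 (left), of Trbv12-1 without Trav12-1 (middle) and of Trav12-1 without Trbv12-1 (right), in members, in granzyme cells with Cd8 UMIs that also hold a Cd4 or Foxp3 UMI, in other CD8 cells and in CD4 cells, for B16-Ova (red) and MC38-Ova (blue) with exact 95% intervals. The pair is at 25.5% and 25.8% in the first 2 B16-Ova groups and at most 3.49% in every other group.

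Each segment of the pair was also read without the other. Trav12-1 without Trbv12-1 was found in 4.58% (1.86 to 9.20) of B16-Ova members and 2.62% (1.91 to 3.52) of other B16-Ova CD8 cells, and in 5.80% and 6.19% in MC38-Ova. Trbv12-1 without Trav12-1 was found in 13.7% of B16-Ova members and 13.8% of other B16-Ova CD8 cells, and in 21.7% and 18.6% in MC38-Ova. Counted with or without its partner, Trav12-1 was found in 30.1% of B16-Ova members and 3.54% of other B16-Ova CD8 cells. Trbv17 was found in 17.6% and 6.22%, and Trav14-3 in 9.15% and 3.36%. Each cell was also assigned its segment with the most UMIs. The effective number of Trbv segments, the number of equally used segments that would give the same evenness, was 6.18 in B16-Ova members against 13.9 in other B16-Ova CD8 cells, and 12.1 against 14.4 in MC38-Ova. For Trav it was 12.8 against 29.2 and 26.1 against 36.4. A smaller group can hold fewer segments, and the groups differ in size. A Trbv segment was detected in 98.7% of B16-Ova members and 98.7% of other B16-Ova CD8 cells, and a Trav segment in 88.2% and 83.5%.

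The 39 B16-Ova members with the pair had more granzyme RNA than the other 114. Their median was 49 granzyme UMIs against 15, with median RNA of 17155 and 15754.5 UMIs. Gzmf stood at 2825 (2705 to 2948) against 1115 (1070 to 1162) CPM, Gzmd at 540 against 275 CPM, Gzme at 635 against 332 CPM and Gzmc at 1467 against 949 CPM. Outside the rule, Ccl9 stood at 146 against 67.7 CPM and Gldc at 124 against 65.2 CPM, whereas Myo10 stood at 91.9 against 92.0 CPM and Prf1 at 1382 against 1169 CPM. Without any cell that held a Trav12-1 UMI, an alternative chosen after the values were seen, members made up 6.34% of B16-Ova CD8 cells. Serpinb9b then had log2 ratios of 3.03 and 3.66, Prf1 2.11 and 1.60 and Spp1 2.70 and 3.08.

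The members bound more L-Pha per cell than other CD8 cells, above all in B16-Ova. In B16-Ova the median member had 988 L-Pha UMIs (quartiles 726 and 1384) and the median other CD8 cell 418, a ratio of 2.36 (1.94 to 2.89). In MC38-Ova it was 488 against 349, a ratio of 1.40 (1.22 to 1.79). Of B16-Ova members 96.1% were above the median of other CD8 cells, and of MC38-Ova members 69.6%. The PD-1 tag had a ratio of medians of 1.58 (1.42 to 1.78) in B16-Ova, from 30 UMIs in members and 19 in other CD8 cells. In MC38-Ova the PD-1 ratio was 1.32 (1.21 to 1.50), from 25 and 19 UMIs. The Tim-3 tag had ratios of 1.40 (1.19 to 1.60) and 1.45 (1.24 to 1.55). Interquartile ranges of members and other CD8 cells overlapped for PD-1 and Tim-3 in both tumours and for L-Pha in both.

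The tag differences moved with RNA content. Per 1000 RNA UMIs of the same cell, B16-Ova members had an L-Pha ratio of 1.05 (0.890 to 1.21) and MC38-Ova members one of 0.820 (0.698 to 0.917). The PD-1 ratios were then 0.672 and 0.771 and the Tim-3 ratios 0.600 and 0.795. Other CD8 cells weighted to the members' RNA deciles gave L-Pha ratios of 1.15 and 0.942. Per 100 UMIs of the cell's own hashtag, a surface label that both kinds of cell carry, the L-Pha ratios were 2.24 (2.00 to 2.52) and 1.38 (1.14 to 1.62). Cell size, total surface and RNA content were not measured apart. Against the other CD8 cells with Pdcd1 and Havcr2 UMIs, B16-Ova members had an L-Pha ratio of 1.27 (1.04 to 1.53) and MC38-Ova members one of 1.03 (0.873 to 1.40). Of 20 tested genes that build and cap branched N-glycans, 1 was called lower and none higher, where 1.9% of all genes were called lower. The gene called was Cmah, which converts the sialic acid Neu5Ac to Neu5Gc. It stood at 5.73 against 30.3 CPM in B16-Ova and 6.42 against 34.1 CPM in MC38-Ova. Mgat5, which makes the branch that L-Pha binds, stood at 7.87 against 15.3 CPM in B16-Ova and 21.4 against 19.2 CPM in MC38-Ova.

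**Figure D5:**
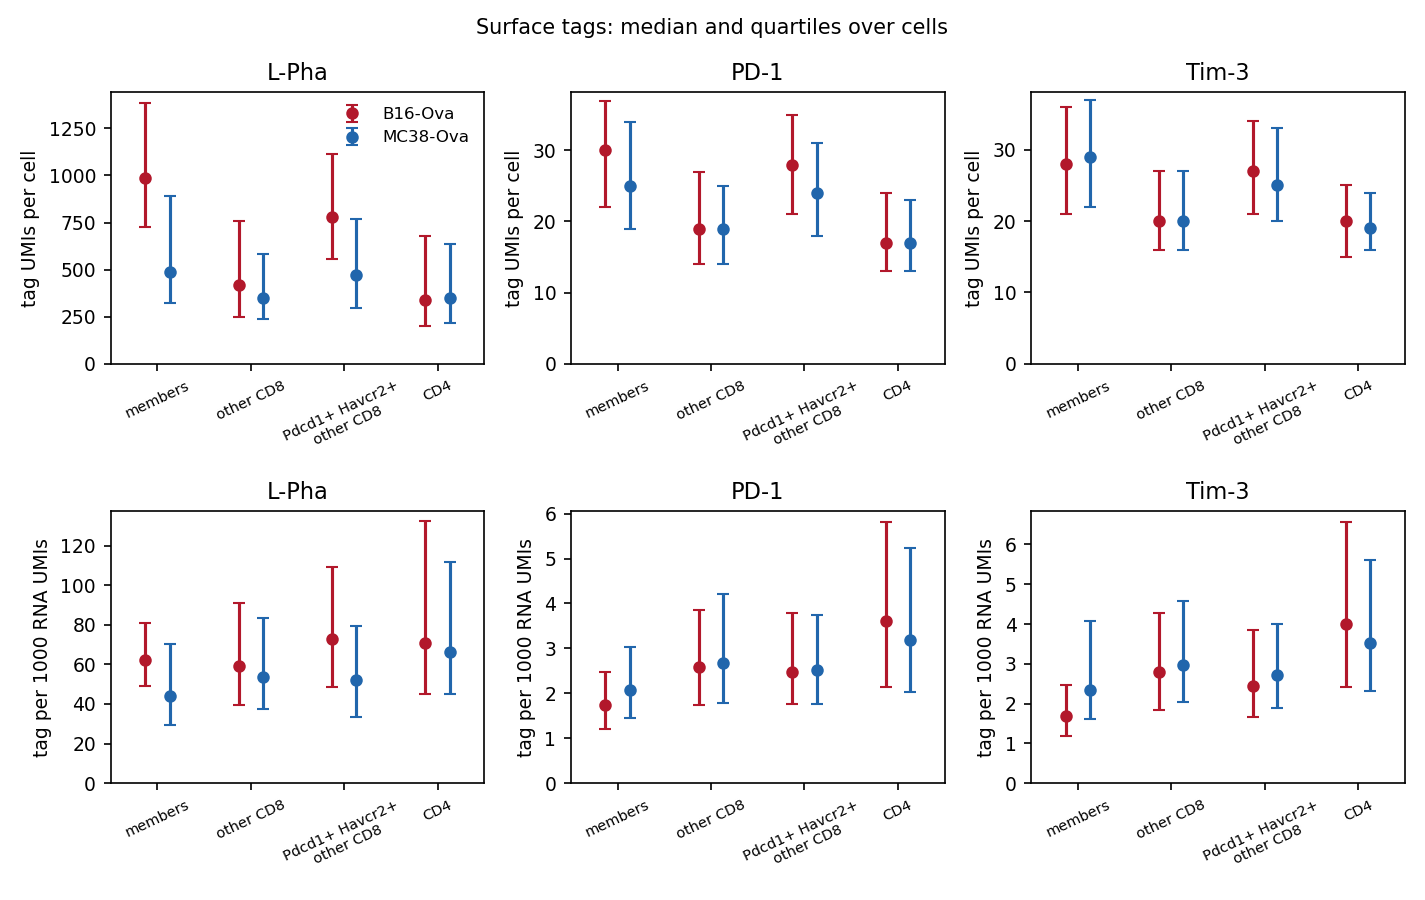
L-Pha, PD-1 and Tim-3 tags as UMIs per cell (top) and per 1000 RNA UMIs (bottom), in members, other CD8 cells, the other CD8 cells with Pdcd1 and Havcr2 UMIs, and CD4 cells, for B16-Ova (red) and MC38-Ova (blue). Points are medians and bars run from the lower to the upper quartile over cells. B16-Ova members lie highest for L-Pha per cell, at 988 UMIs, and at 62.2 per 1000 RNA UMIs against 59.2 in other CD8 cells.

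The rule kept 291 granzyme cells and left out 304. Among the hashtagged cells it left out, 161 from B16-Ova and 143 from MC38-Ova had at least 3 UMIs of the 4 granzymes. Of these, 128 and 86 had at least 2 Cd8 UMIs but also a Cd4 or Foxp3 UMI, and their median RNA was 30083 and 19420.5 UMIs, well above that of members. A Cd4 or Foxp3 UMI was about as common in CD8-bearing cells with granzyme RNA as without, at 45.6% and 41.1% for B16-Ova and 38.4% and 39.4% for MC38-Ova. In these 128 and 86 cells Prf1 stood at 687 and 349 CPM, Serpinb9b at 139 and 30.5 CPM and Foxp3 at 119 and 115 CPM. The Trbv12-1 and Trav12-1 pair occurred in 33 of the 128, 25.8% (18.5 to 34.3), close to its share in B16-Ova members. Whether these barcodes hold 1 cell or more was not tested. When 1 UMI of Cd4 and Foxp3 together was allowed, a choice made after the values were seen, there were 348 members.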

How the data were processed

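RNA and surface tags of sorted tumour T cells were measured in 1 capture of the 10x Genomics 5′ assay. The values are raw UMI counts of 31053 genes, 3 tags and 2 hashtags in 19912 barcodes, deposited by the authors in a matrix whose header gives software version 3.0.2. The submitters' processing notes name Cell Ranger 3.1.0, R 3.6.1, Seurat 3.1.0 and the build mm10. Receptor sequencing was not used here.

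Barcodes needed at least 500 genes, at most 10% mitochondrial UMIs, and a larger hashtag of at least 150 UMIs and 3 times the other. The 2388 filtered barcodes with both hashtags were dropped as doublets. Doublets within a pool were scored with Scrublet (scanpy 1.11.5, expected rate 0.25), which separated both-hashtag barcodes with an area under the curve of 0.721, and the highest scores (935 and 1524 cells) were left out only as an alternative. No barcode occurred more than once (0 shared).

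UMIs were summed over members and over other CD8 cells of each tumour and divided by total RNA UMIs to give counts per 1000000 (CPM). Cells are not replicates and there is 1 pool per tumour, so no test was made. Shares have exact Clopper-Pearson intervals, ratios exact conditional 95% intervals, and medians intervals from order statistics. A gene with at least 50 UMIs in each tumour, over both groups together, was called when past 2-fold in both tumours. Between tumours the minimum was 50 UMIs over the 2 pools compared. A group at 0 was set to a floor of 3 UMIs in a ratio. The 8 genes of the rule and of the granzyme sum were left out where they would be compared with themselves. On simulated Poisson counts for 9352 genes of the comparison of members with other CD8 cells, intervals held the true ratio for 95.7% and 95.9% of genes. The intervals assume Poisson counts, so a share near 95% was set in advance. In that simulation 100% of 3-fold higher genes, 90% of 3-fold lower genes, 0% of 1.5-fold higher genes, 2% of 1.5-fold lower genes and 0.0437% of unchanged genes were called. Poisson counts lack the concentration of UMIs in few cells seen for some genes here, so these rates do not cover it.

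The members and lists were chosen with earlier results of these data known. Named genes were the 5 markers, the 4 granzymes, genes of 20 lists, and the 15 called genes with the largest and the 15 with the lowest ratios at 20 CPM or more, ranked by the smaller absolute log2 ratio of the 2 tumours. Between tumours they were the 12 largest in each direction at 50 CPM or more. The comparison with cells holding Pdcd1 and Havcr2 UMIs, the V segment pair, and 3 alternatives were chosen after the values were seen. Alternatives covered the hashtag limits, the granzyme limit, mitochondrial share, doublets, marker UMIs of other classes, depth, scaling, averaging, count minimum and fold. Python 3.11.15, numpy 2.4.6, scipy 1.17.1, pandas 2.3.3 and matplotlib 3.10.9 were used, with random seed 1. A few members of these lists are not reported here by name.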

Additional observations from a re-analysis of the deposited data

Results flagged for a closer look

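For 3 genes the whole 95% counting interval of the ratio of members to other CD8 cells lay past 2-fold in opposite directions in the 2 tumours. The difference between the tumours was not tested, since each is 1 pool. Ifitm1, an interferon-induced membrane protein, had a log2 ratio of -2.23 in B16-Ova, from 13 UMIs in 8 members, and of 1.75 in MC38-Ova, from 1799 UMIs in 70 members. Gzma, which encodes granzyme A, had a log2 ratio of -1.59 in B16-Ova and of 1.66 in MC38-Ova, where 1 member held 365 of 1118 UMIs. Ccl8, a chemokine, had a log2 ratio of 3.18 in B16-Ova, from 42 UMIs in members. In MC38-Ova members Ccl8 was at 0 UMIs, and the value of -1.96 there is computed against a floor of 3 UMIs and is a bound.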

How the results depend on the processing

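No paired analysis was possible because each tumour is 1 pool and no result comes from a test. Over the shares of members, the counts of called genes and the tag ratios, 180 values were recomputed, of which 130 stayed within the limits set for the reported value, 44 moved and 6 changed direction. For single genes 1459 of 1826 values stayed, 361 moved and 6 changed direction. The cause of a move was not tested unless the alternative itself sets it. With at least 5 granzyme UMIs the share of members was 7.20% and 3.97% (B16-Ova, then MC38-Ova). With 1 UMI against none it was 15.7% and 15.02%, with 19 genes called higher and 30 lower, and Il10 had a log2 ratio of 0.74 in MC38-Ova. With cells thinned to 3000 RNA UMIs, the rule was read again on the thinned counts, so the groups held partly different cells. The shares were then 6.26% and 2.85%, and the B16-Ova ratios of L-Pha and PD-1 were 1.70 and 1.41. There 35 genes were higher in MC38-Ova and 52 in B16-Ova members. Without cells with 2 or more UMIs of other classes the B16-Ova share was 6.57%, the B16-Ova PD-1 ratio 1.33, and 97 genes were higher in MC38-Ova and 77 in B16-Ova members. With the mean of per-cell CPM 66 genes were called higher and Il10 had a log2 ratio of 0.099 in B16-Ova. Leaving out cells with 3 or more UMIs of the phase lists kept only 11 members. There 197 genes were called higher and 5 lower, 16 genes were higher in MC38-Ova and 11 in B16-Ova members, and log2 ratios were 2.31 for Frat2 in B16-Ova and 0.096 for Lef1, 0.44 for Bcl2 and 0.13 for Cxcr4 in MC38-Ova. With a minimum of 10 UMIs 126 genes were called higher, and 547 genes were higher in MC38-Ova and 748 in B16-Ova members. With a minimum of 200 UMIs 19 were called higher and 79 lower, and the tumours differed in 69 and 51 genes. At 3-fold 9 were called higher and 55 lower, and the tumours differed in 70 and 80. With other CD8 cells weighted to the RNA deciles of the members 18 were called higher and 110 lower, L-Pha ratios were 1.15 and 0.942, PD-1 ratios 1.11 and 1.19, and the B16-Ova Tim-3 ratio 1.12. Per 1000 RNA UMIs L-Pha had ratios of 1.05 and 0.820, PD-1 of 0.672 and 0.771, and Tim-3 of 0.600 and 0.795. Per 100 UMIs of the own hashtag the B16-Ova ratios of PD-1 and Tim-3 were 1.37 and 1.19. Of the alternatives chosen after the values were seen, leaving out cells with 2 or more melanoma and macrophage UMIs gave a B16-Ova share of 7.11% and 138 genes higher in B16-Ova members, and leaving out cells with a Trav12-1 UMI gave a B16-Ova share of 6.34%. Genes with few UMIs in the 291 members have wide counting intervals.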
